A study of Homo sapiens with 5 samples.

Results

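Ribosome biogenesis genes, 40 named genes for nucleolar rRNA synthesis, rRNA processing and ribosome assembly, were followed in HEK293T cells given ascorbic acid (vitamin C). The genes were chosen by symbol and not by their values, though with earlier results of these data known. All 40 were found among the 28278 rows of the deposited count table. HEK293T is an established human embryonic kidney cell line. The study compared 3 control libraries (genotype field WT) with 2 libraries whose genotype field reads ascorbic acid treatment. Per the labels, cells were seeded for 24 h and then treated for 24 h for a DNA methylation test or 36 h for an RNA methylation test, with the medium changed every 6 h. The labels give no dose and do not say which duration applied to these libraries. Messenger RNA was purified on capture beads. Whether each library is its own culture is not stated. The p-values therefore speak only to variation among these 5 libraries, part or all of which could be technical.

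Ribosomes are built in the nucleolus. RNA polymerase I copies the rDNA into a long precursor RNA, small nucleolar RNPs guide its chemical modification, and large assemblies fold and cut it into the rRNAs of the small and large subunits. Because growing cells spend much of their transcription on ribosomes, these genes are usually expressed together and at high levels in dividing cell lines.

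The libraries held 35106664 to 57212071 gene counts. TMM (trimmed mean of M-values) scaling factors were 0.984 to 0.994 in controls and 1.011 and 1.025 in the treated libraries. Even numbers made up 71.3 to 75.9% of the low counts (1 to 10), so a fragment may have been counted as 2 reads. Halving all counts left the same 7 of the 40 genes called. The kidney label was checked against markers. Of 7 proximal tubule markers 5 were expressed well enough to test and 2 (SLC34A1 and SLC22A6) had at most 2 counts in every library. The list summed to 32.7 to 35 CPM (counts scaled to a common TMM-adjusted library total) in controls and 27.9 to 28 CPM after treatment. The lower sum does not describe most of the list. Of the 5 tested genes 4 had a positive log2 fold change and 1 a negative one, with 1 called in each direction. The 8 neural-type genes that HEK293 cells express summed to 42.1 to 45.1 CPM in controls and 57.4 to 60.8 CPM after treatment. Of the 7 tested, 4 rose. Of 10 fibroblast markers 4 (COL1A2, DCN, THY1 and FAP) had at most 2 counts everywhere. The list summed to 18.2 to 19.0 CPM in controls and 30.9 to 34.7 CPM after treatment, and 3 of the 4 tested rose. Keratinocyte and epithelial markers (6 genes) summed to 2.95 to 3.2 CPM and 4.66 to 4.86 CPM, with KRT5 and KRT14 at 2 counts or fewer, and 3 of the 4 tested rose. Haematopoietic markers summed to 73.6 to 78.0 CPM and 80.8 to 88.8 CPM, with PTPRC, CD3E and HBB at 2 counts or fewer, and 1 of the 3 tested rose. The 3 tested had a median of only 1.39 CPM, so 1 gene made up most of this sum, which does not describe the list. Hepatocyte markers summed to 0.0789 to 0.266 CPM and 0.412 to 0.467 CPM, with TTR and SERPINA1 at 2 counts or fewer, and the 1 tested was not called. Their part in the results on ribosome biogenesis was not tested.

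Ascorbic acid was accompanied by small differences in ribosome biogenesis transcripts. Of the 40 genes, all of which passed the filter on low counts, 6 fell, 1 rose and 33 did not pass edgeR's quasi-likelihood test at a threshold of 0.05 on the Benjamini-Hochberg adjusted p. The genes that fell were UTP18, NOP16, TSR1, UTP3, NAT10 and POLR1A, and MYBBP1A rose. The fitted log2 fold changes ran from -0.21 to 0.16, and no approximate 95% interval reached below -0.31 (UTP18) or above 0.26 (MYBBP1A), which is 0.806-fold and 1.2-fold. Over all 15271 tested genes 14.3% passed, 5.76% lower and 8.53% higher. Ribosome biogenesis genes are highly expressed, at a median of 179 CPM against 21.0 CPM for all tested genes, and at high levels the balance of calls was different. Among the 4707 tested genes at 50 CPM or more, 12.6% fell and 4.65% rose. The share of ribosome biogenesis genes that fell, 6 of 40 or 15%, is therefore near that in genes of like level.

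The direction was shared by most of the genes. Of 40, 34 had a negative log2 fold change, with a median of -0.08, against 49.2% negative over all tested genes. The negative genes numbered 29 with library totals (median -0.0389) and 25 when the trend with expression level was removed by cyclic loess (median -0.0293). At high levels 69.8% of the genes at 50 CPM or more were negative, with a median of -0.05. Both treated libraries lay below all 3 controls for 22 genes and above them for 2, while 37.1% of genes at 50 CPM or more lay below and 12% above. Over all tested genes these shares were 20.4% and 22.6%. The summed level of the 40 genes was 12885, 12609 and 12815 CPM in the controls and 12084 and 12178 CPM in the treated libraries. This sum was lower in both treated libraries than in every control. NPM1 and NCL, neither of them called, weigh most in it, with control means of 2948 and 2125 CPM. The sum also depends on the TMM factors, which were higher in both treated libraries than in any control. Of the 40 genes, 33 and 36 lay below their control mean in treated replicates 1 and 2, and 17, 27 and 17 did so in control replicates 1 to 3. Each control is part of that mean, so the control counts are not an independent baseline. The share of all genes below their control mean was not computed for each library. The median log2 ratio to the control mean was -0.0752 and -0.0931 for the 40 genes in treated replicates 1 and 2. For genes at 50 CPM or more it was -0.0471 and -0.0499.

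The calls depended on scaling and on single libraries. Of all calls 1303 were higher and 879 lower, or 59.7% higher, and with library totals in place of TMM factors 81.4% were higher. With library totals 1 of the 40 fell (UTP18) and 1 rose (MYBBP1A), and the same 2 remained when the trend with expression level was removed by cyclic loess. Without control replicate 1, UTP18 alone was called. In bulk libraries, fewer cells of a kind and less RNA per cell cannot be told apart.

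**Figure D1:**
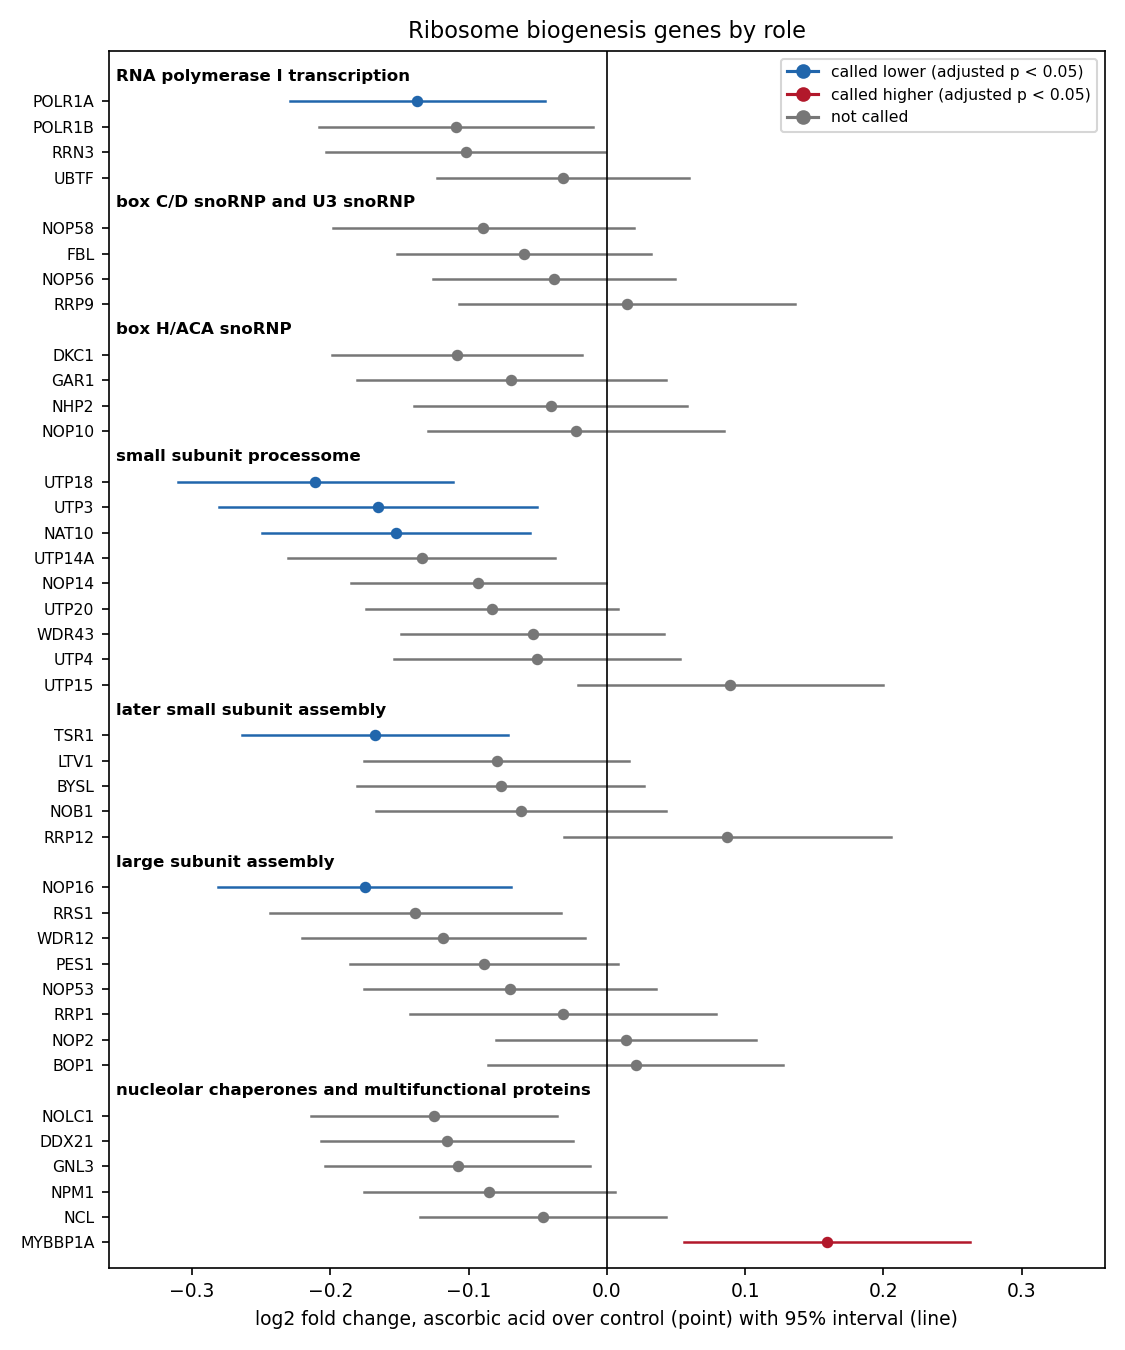
Fitted log2 fold change (ascorbic acid over control, x axis) of each of the 40 ribosome biogenesis genes, grouped by role, as a point with its approximate 95% interval as a line, coloured by the edgeR call at an adjusted p of 0.05 over all tested genes. Of 40 points 34 lie left of 0, and the 7 coloured genes lie between -0.21 and 0.16.

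**Figure D2:**
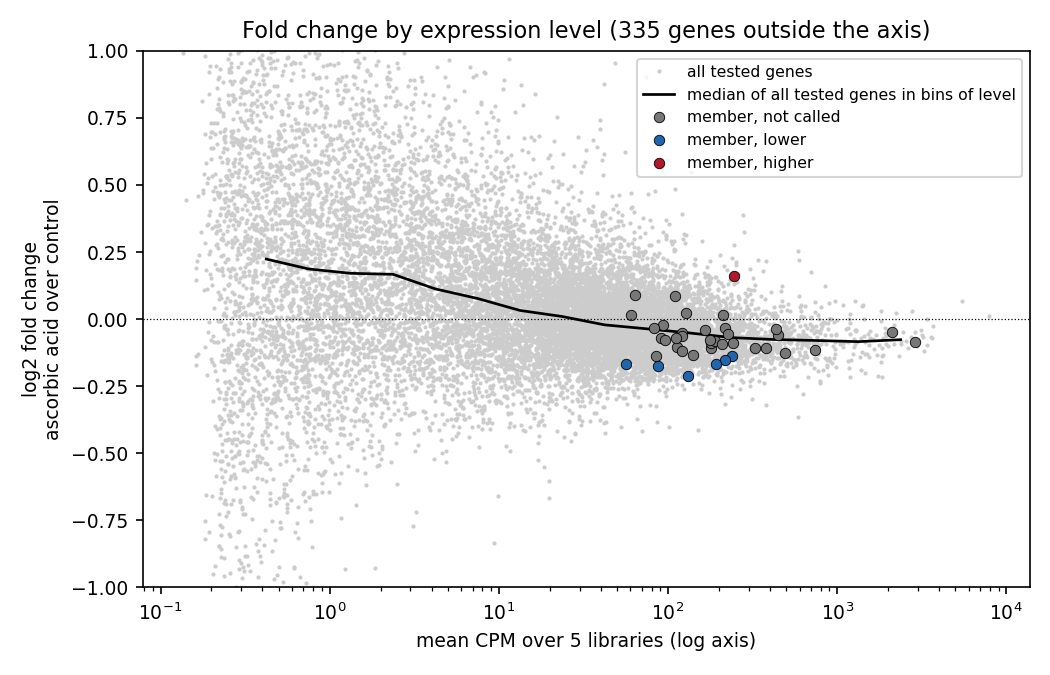
Log2 fold change (y axis) against mean CPM over the 5 libraries (x axis, log scale) for all tested genes in grey and the 40 ribosome biogenesis genes as larger points. The black line, the median of all tested genes in bins of level, falls below 0 in the range where these genes lie, and 335 genes with larger changes lie outside the y axis.

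Sequence before the gene start was examined for the genes that changed, to show what these promoters hold. RefSeq windows on GRCh38.p14 were found for 35 of the 40 genes, in 42 windows, and not for NOP58, RRP12, BOP1, RRS1 and NOLC1. The 250 bases before each start were searched on both strands for 4 motifs. The first was the E-box CACGTG, which MYC and MAX bind. It was in 16.7% of these windows, 6.34% of all 35116 RefSeq windows and 9.45% of windows of genes at 50 CPM or more. The next was an ETS-type site, spelled CCGGAAG. For it the 3 shares were 33.3%, 8.52% and 17.2%. The box CCAAT was in 31%, 32% and 35.2%. The last motif, a palindrome of 10 bases with a CGCG core that is not spelled out here, was in 2.38%, 0.373% and 1.22%, and among the 40 genes before NOP14 alone. Of 7 genes with 2 windows, the windows overlap in GNL3 and RRN3. A match describes the letters only.

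Of the 7 genes that changed, 5 held the E-box or the ETS-type site, and POLR1A and MYBBP1A held neither in this window. Of the 35 genes with a window, 7 held the E-box and 13 the ETS-type site. The share of all genes with either motif was not computed, so 5 of 7 has no baseline here. All 250 bases of the POLR1A, TSR1 and NOP16 windows, and 247 in the MYBBP1A window, lie in annotated exons. The stretch before UTP18, the gene with the smallest p, is chr17:51260339-51260519 on the plus strand, 207 to 27 bases before the start and clear of exons annotated in GENCODE release 29. It is shown with short stretches around the matches in NAT10 (chr11:34105600-34105627, plus strand), TSR1 (chr17:2336458-2336485, minus strand), NOP16 (chr5:176388600-176388627, minus strand) and UTP3 (chr4:70688498-70688525, plus strand), each read 5′ to 3′ along the gene. The short stretches overlap exons annotated in GENCODE. Capitals mark the E-box and the ETS-type site on either strand.
UTP18: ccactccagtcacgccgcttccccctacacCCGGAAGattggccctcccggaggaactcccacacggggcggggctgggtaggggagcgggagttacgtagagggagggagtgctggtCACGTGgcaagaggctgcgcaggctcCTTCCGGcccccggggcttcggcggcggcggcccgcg
NAT10: ttaatgcgcttgcgCACGTGctgtctac
TSR1: CCGGAAGcgcttgtcctggcCCGGAAGc
NOP16: ttgtgcacgcCTTCCGGAAGgagtttgt
UTP3: agcatgctgggggCCGGAAGgaagagga
UTP18 was the 1 gene of the 7 with both the E-box and the ETS-type site. UTP18, TSR1 and NOP16 each held a pair of ETS-type matches, which overlap on opposite strands in NOP16. Both motifs also occur before genes of the 40 that were not called, such as DDX21, NOP10 and UTP4.

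In the RNA polymerase I group, POLR1A, the largest catalytic subunit, fell. POLR1A (chromosome 2, 86020216 to 86106155, GRCh38) measured 249.6, 242 and 249.9 CPM in the controls and 231 and 218 CPM in the treated libraries. The groups did not overlap, with a fitted log2 difference of -0.14 ± 0.05 (SE, edgeR adjusted p = 0.0397). The call ended without control replicate 1 (adjusted p = 0.127), control replicate 2 (0.0885), control replicate 3 (0.0990) or treated replicate 2 (0.202). POLR1B, the second-largest subunit, measured 196, 179 and 181 CPM in controls and 175 and 169 CPM after treatment (-0.11 ± 0.05, edgeR adjusted p = 0.133). RRN3, the factor that joins the polymerase to the promoter, measured 114, 119 and 114 CPM against 105 and 111 CPM (-0.10 ± 0.05, edgeR adjusted p = 0.173). For both, the treated libraries were below the controls without passing the test. RRN3 has 3 pseudogene rows in the table, RRN3P1 to RRN3P3, at 0.289 to 2.37 CPM in the libraries. UBTF, the rDNA-binding factor that opens the promoter, measured 216, 222 and 222 CPM against 218 and 212 CPM, and its groups overlapped (-0.03 ± 0.04).

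No gene of the box C/D group passed with edgeR, DESeq2 or limma-voom, and 0 had an unadjusted p under 0.05 in edgeR. These proteins carry the guide RNAs for ribose methylation. FBL, the methyltransferase fibrillarin, was at 454 ± 8.04 CPM (SD, n = 3) in controls and 435 ± 22.6 CPM (SD, n = 2) after treatment, with 451 and 419 CPM in the treated libraries on either side of the lowest control (449 CPM). NOP56, a scaffold of the same particle, was the steadiest, at 443, 441 and 437 CPM against 430.1 and 427 CPM (-0.04 ± 0.04). NOP58, its partner, differed between the treated libraries. It measured 181, 189 and 186 CPM in controls but 160.0 CPM in treated replicate 1 and 188 CPM in treated replicate 2. NOP58 was not called (-0.09 ± 0.05, edgeR adjusted p = 0.280), and was called lower without treated replicate 2 (-0.22, adjusted p = 0.00642). RRP9, which binds the U3 small nucleolar RNA, measured 57.2, 58.6 and 65.2 CPM against 62.2 and 59.5 CPM (0.01 ± 0.06).

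Among the box H/ACA proteins, which guide the conversion of uridine to pseudouridine and also bind telomerase RNA, none passed with edgeR, DESeq2 or limma-voom, and 1 (DKC1) had an unadjusted p under 0.05 in edgeR. DKC1, the pseudouridine synthase dyskerin, measured 336, 332 and 342 CPM in controls and 320.2 and 304 CPM after treatment. Its treated libraries were both lower, at -0.11 ± 0.04 on the log2 scale (edgeR adjusted p = 0.0996). The other 3 core proteins had groups that overlapped. GAR1 was at 92.7 ± 6.13 CPM (SD, n = 3) against 88.4 ± 2.11 CPM (SD, n = 2), NHP2 at 168 ± 5.92 CPM against 163 ± 8.34 CPM, and NOP10 at 94.6 ± 4.87 CPM against 93.1 ± 2.0 CPM. NHP2 shares 27.4% of its exon bases with RMND5B on the opposite strand, and whether the counting used strand is not stated, so its value is uncertain.

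The small subunit processome, the first large particle on the precursor RNA, is the largest group, with 9 of the 40 genes. It held 3 of the 6 genes that fell. Among all tested genes 5.76% fell, and 12.6% of those at 50 CPM or more. Of 38 further processome genes 6 fell (15.8%). UTP18 (chromosome 17, 51260528 to 51297936), a WD-repeat protein of the processome that recruits the exosome, had the largest decrease of the 40 and the smallest p. It measured 141, 142 and 134 CPM in controls and 123 and 117 CPM in the treated libraries. The lowest control exceeded the higher treated library by more than the spread within either group, with a fitted log2 difference of -0.21 ± 0.05 (edgeR adjusted p = 0.00371). The promoter stretch printed for UTP18 holds the E-box and the ETS-type site, and also a CCAAT box on the minus strand. UTP18 was called in 17 of 18 alternatives, with log2 fold changes from -0.25 to -0.16, and was not called against a fold of 1.2.

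UTP3 (chromosome 4, 70688479 to 70690551), a processome factor also known as SAS10, measured 59.1, 58.9 and 58.8 CPM in controls and 54.2 and 50.9 CPM after treatment (-0.17 ± 0.06, edgeR adjusted p = 0.0459). The 3 controls differed by less than 1%, and both treated libraries were lower. UTP3 lost its call without control replicate 1 (adjusted p = 0.133), control replicate 2 (0.130), control replicate 3 (0.0669) or treated replicate 2 (0.227). NAT10 (chromosome 11, 34105602 to 34147670), the RNA cytidine acetyltransferase, measured 237, 217 and 228 CPM against 210.0 and 199 CPM (-0.15 ± 0.05, edgeR adjusted p = 0.0297). Its lowest control, replicate 2, was close to the higher treated library. The NAT10 call ended without control replicate 1 (adjusted p = 0.171), control replicate 3 (0.0525) or treated replicate 2 (0.143).

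Of the 6 other processome genes, 5 had negative values and 1 a positive one, and none passed. UTP14A, a factor that works with the helicase of the U3 particle, measured 148, 142 and 149 CPM against 132 and 135 CPM and stood just outside the threshold (-0.13 ± 0.05, edgeR adjusted p = 0.0545). It was called lower with DESeq2, with DESeq2 size factors in edgeR and with GC and length trends removed. UTP20, a very large scaffold protein, measured 194, 194 and 193 CPM against 182 and 184 CPM, and NOP14, a core processome factor, measured 219, 209 and 218 CPM against 204 and 199.8 CPM. In both genes the treated libraries lay below every control. The WD-repeat proteins UTP4 and WDR43 overlapped between groups. UTP4 was at 124 ± 5.71 CPM (SD, n = 3) against 119 ± 5.04 CPM (SD, n = 2) and WDR43 at 230.3 ± 6.29 CPM against 222 ± 11.2 CPM. UTP15, a WD-repeat protein of the same early complex as UTP4, measured 62.8, 64.2 and 60.7 CPM against 66.9 and 66.3 CPM, higher in both treated libraries but not called (0.09 ± 0.05, edgeR adjusted p = 0.288). With GC and length trends removed it was called higher (0.13, adjusted p = 0.0267). ANKRA2, which overlaps 3.9% of the UTP15 exon bases on the opposite strand, rose by 0.35 ± 0.10 (edgeR adjusted p = 0.0164).

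In later small subunit assembly 1 of 5 genes fell. TSR1 (chromosome 17, 2322503 to 2337507), a GTPase-like factor that keeps the immature small subunit from starting translation, measured 204, 203 and 199 CPM in controls and 187 and 172 CPM after treatment. All controls were above both treated libraries (-0.17 ± 0.05, edgeR adjusted p = 0.0156). The TSR1 call ended without control replicate 1 (adjusted p = 0.0730), control replicate 2 (0.0623) or treated replicate 2 (0.147). TSR1 shares 20.8% of its exon bases with SRR and SGSM2 on the opposite strand, which were at 0.26 ± 0.12 and 0.05 ± 0.07 on the log2 scale and did not pass.

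The other 4 did not pass. BYSL, an assembly factor known as bystin, measured 97.8, 95.4 and 102 CPM against 95.2 and 91.3 CPM, and the export adaptor LTV1 186, 177 and 181 CPM against 167 and 177 CPM, both with treated libraries narrowly below the lowest control. NOB1, the nuclease that makes the final cut of the small subunit rRNA, was at 123 ± 6.70 CPM (SD, n = 3) against 118 ± 3.83 CPM (SD, n = 2). RRP12, a repeat protein that helps subunits leave the nucleus, measured 104, 105 and 115 CPM against 123 and 106 CPM, so treated replicate 1 stood above all the other libraries. RRP12 was not called (0.09 ± 0.06, edgeR adjusted p = 0.338), and was called higher without treated replicate 2 (0.19, adjusted p = 0.0380). LTV1 shares 34.8% of its exon bases with annotated genes on its own strand.

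Among 8 large subunit assembly genes 1 fell. NOP16 (chromosome 5, 176383938 to 176388975), a small nucleolar protein of early large subunit particles, measured 93.7, 86.9 and 91.9 CPM in controls and 80.3 and 80.7 CPM after treatment (-0.17 ± 0.05, edgeR adjusted p = 0.0220). Its treated libraries were nearly equal and below every control. The NOP16 call ended without control replicate 1 (adjusted p = 0.131) or treated replicate 1 (0.0678). NOP16 shares 20% of its exon bases with ARL10 and HIGD2A on the opposite strand. ARL10 rose by 0.24 ± 0.05 (edgeR adjusted p = 0.00269), from 76.8 to 90.9 CPM, in the opposite direction to NOP16, and HIGD2A was at 0.03 ± 0.07.

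PES1, BOP1 and WDR12 form the PeBoW complex, which acts in large subunit assembly. WDR12 measured 131, 123 and 119 CPM against 115 and 114 CPM (-0.12 ± 0.05, edgeR adjusted p = 0.113). PES1 measured 250.2, 238 and 252 CPM against 242 and 222 CPM, and BOP1 118, 130.1 and 134 CPM against 132 and 126 CPM, with a fitted difference of 0.02 ± 0.05. WDR12 had groups that did not overlap, and the other two did overlap. No complex member was called, and the differences between the 3 were not tested.

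RRS1, which brings the 5S RNP into the large subunit, measured 89.5, 85.1 and 90.3 CPM against 80.2 and 80.2 CPM (-0.14 ± 0.05, edgeR adjusted p = 0.0684). It was called with GC and length trends removed, as were PES1 and NOP53. NOP2, a cytosine methyltransferase of large subunit rRNA, was at 209.6 ± 7.13 CPM (SD, n = 3) against 212 ± 5.54 CPM (SD, n = 2), a difference of 0.01 ± 0.05. The assembly factors RRP1 (83.2 ± 4.04 against 81.3 ± 3.81 CPM) and NOP53 (114 ± 5.39 against 109 ± 5.55 CPM) also overlapped between groups. NOP2 shares 54.4% of its exon bases with another gene annotated on the same strand, so its count is uncertain.

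The genes of the 6 nucleolar chaperones and multifunctional proteins had groups that did not overlap in every case, with 5 lower and 1 higher. Among genes at 50 CPM or more, 37.1% had both treated libraries below all controls and 12% above. Over all tested genes these shares were 20.4% and 22.6%. MYBBP1A (chromosome 17, 4538897 to 4555631), a nucleolar protein that binds transcription factors and is known as a brake on RNA polymerase I, was the 1 gene of the 40 that rose. It measured 217, 233 and 249.8 CPM in controls and 268 and 252 CPM after treatment. The highest control, replicate 3, was close to the lower treated library, with a fitted log2 difference of 0.16 ± 0.05 (edgeR adjusted p = 0.0332). The MYBBP1A call ended without control replicate 1 (adjusted p = 0.176), control replicate 2 (0.0583) or treated replicate 1 (0.238), with DESeq2, and with GC and length trends removed.

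NPM1, the histone and ribosome chaperone nucleophosmin, measured 3014, 2885 and 2946 CPM against 2722 and 2837 CPM (-0.09 ± 0.04, edgeR adjusted p = 0.210). NCL, the RNA-binding protein nucleolin, measured 2160.4, 2096 and 2119 CPM against 2029 and 2087 CPM (-0.05 ± 0.04, edgeR adjusted p = 0.524). These were the most abundant of the 40, and in both the treated libraries were lower by only a few percent. NOLC1, a chaperone of small nucleolar RNPs, measured 522, 499 and 508 CPM against 472 and 463 CPM and stood just outside the threshold (-0.12 ± 0.04, edgeR adjusted p = 0.0518). It was called with DESeq2, limma-voom, DESeq2 size factors in edgeR and GC and length trends removed. The helicase gene DDX21 measured 776, 772 and 748 CPM against 685 and 728 CPM, and GNL3, the nucleolar GTPase nucleostemin, 389, 401 and 389.9 CPM against 346 and 384 CPM. In both, treated replicate 1 was the lowest library, and both were called without treated replicate 2 (adjusted p = 0.0276 and 0.0109). DDX21 was also called lower with DESeq2 (adjusted p = 0.0430). NPM1 has 45 annotated pseudogenes, none of them a row of the table, so reads shared with them could move its count.

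**Figure D3:**
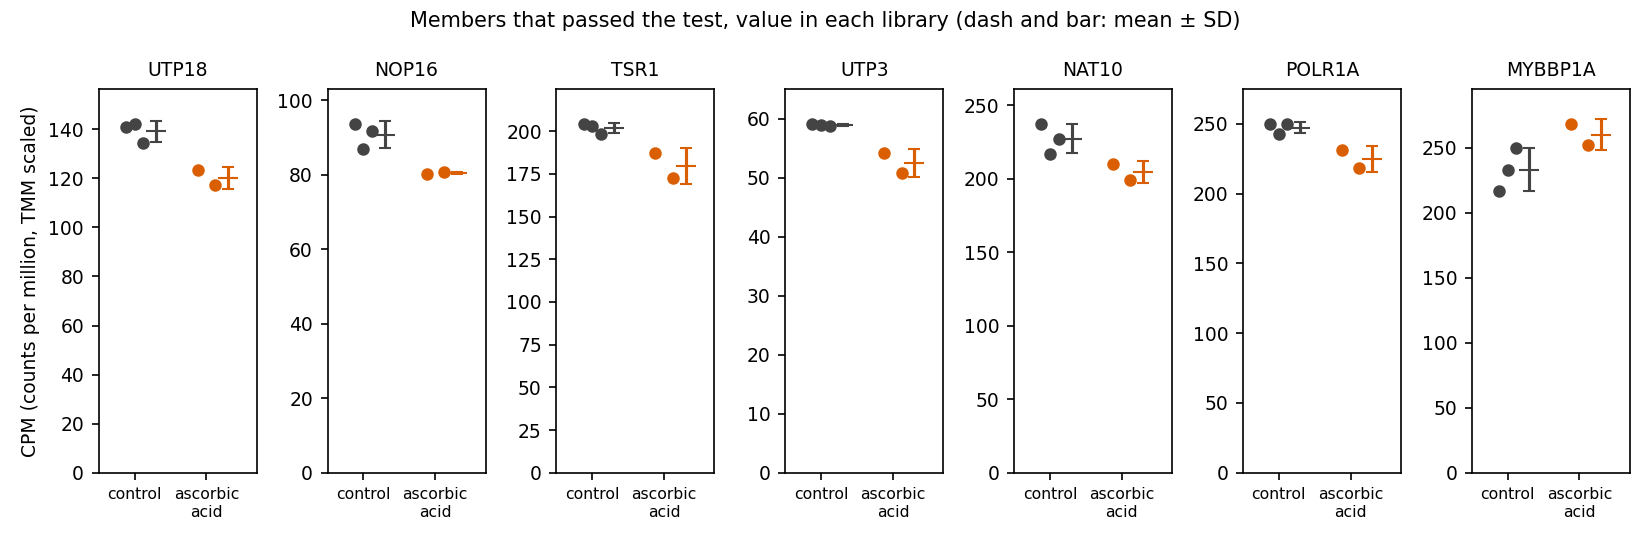
Level in CPM (y axis, from 0) of the 7 ribosome biogenesis genes that passed the test, with 1 point for each library (3 control in grey, 2 ascorbic acid in orange) and the group mean with its SD beside them. In 6 genes both treated libraries lie under the 3 controls, and in MYBBP1A both lie above them.

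Levels between genes were compared as CPM per kb of the principal transcript in GENCODE release 29, a scale that depends on the transcript chosen. NPM1 was highest, at 1677 ± 36.6 CPM per kb in controls (SD, n = 3), followed by NCL at 527 ± 8.08 and FBL at 391 ± 6.93. These 3 were separated by far more than their spread. NHP2 (194 ± 6.84), GNL3 (193 ± 3.27) and NOP56 (183 ± 1.12) came next, of which NHP2 and GNL3 did not differ beyond their spread. Within the box C/D particle the level per kb fell from FBL to NOP56 to NOP58 (90.5 ± 2.0). In the H/ACA particle it fell from NHP2 to NOP10 (171 ± 8.79), DKC1 (131 ± 1.97) and GAR1 (75.7 ± 5.01). At the low end were UTP20 (21.5 ± 0.0516), POLR1A (19.4 ± 0.331), UTP15 (17.0 ± 0.482) and WDR12 (15.3 ± 0.752). WDR12 was divided by a transcript of 8100 bases. Its control mean of 124 CPM was close to that of BOP1 (128 CPM, 2303 bases), so its last place rests on that length.

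**Figure D4:**
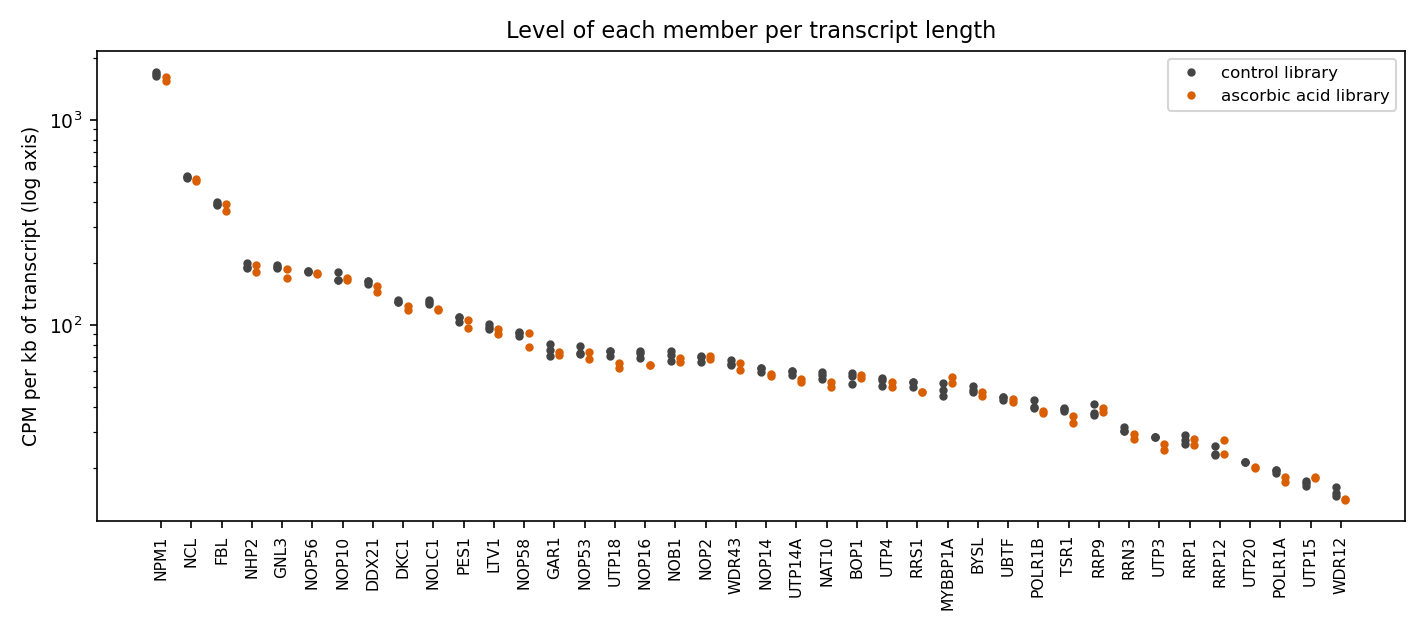
Level of each of the 40 genes in CPM per kb of transcript (y axis, log scale), ordered by the control mean, with 1 point for each library. The order depends on the transcript chosen and spans from NPM1 at 1677 to WDR12 at 15.3 CPM per kb. The difference between control and treated libraries is small beside the difference between genes.

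Ribosome biogenesis genes beyond the 40 were taken from 6 lists, also chosen with earlier results of these data known. The lists held 159 genes, of which 157 were tested. Of these, 23 fell, 3 rose and 131 did not pass, with a median log2 fold change of -0.07. The share that fell was 14.6%, against 5.76% of all tested genes. Of the 157, 111 were at 50 CPM or more, and 22 of these fell (19.8%) and 0 rose, against 12.6% and 4.65% of all genes at that level. In the large subunit list 11 of 60 fell and 1 rose, and in the processome list 6 of 38 fell and 0 rose. Of 26 exosome and rRNA nuclease genes 3 fell, of 11 snoRNP assembly genes 2 fell, of 11 later small subunit genes 1 fell and 1 rose, and of 11 RNA polymerase I genes 1 rose. With library totals 6 of the 157 fell and 5 rose, and with the expression trend removed 5 fell and 3 rose. Without control replicate 1, 6 fell and 1 rose, and without control replicate 2, 13 fell and 2 rose. Those that rose numbered 1 without either treated replicate.

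POP1, a protein of the RNase P and RNase MRP complexes, stood out in size. It measured 80.9, 75.7 and 77.6 CPM in controls and 58.6 and 58.4 CPM after treatment (-0.42 ± 0.05, edgeR adjusted p = 3.24e-06). The treated libraries were almost equal and about 25% below the controls. POP1 kept its call under every alternative run, including the test against a fold of 1.2.

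Other genes of the lists that fell did so by about as much as those of the 40, while TSR3 and TAF1C rose by more than any of the 40. FTSJ3, an rRNA methyltransferase, fell by 0.21 ± 0.05 on the log2 scale (edgeR adjusted p = 0.00262), the assembly factor RPF1 by 0.21 ± 0.05 (0.00359) and the GTPase GTPBP4 by 0.19 ± 0.04 (0.00368). In the processome, WDR3 (-0.20 ± 0.05), UTP11 (-0.19 ± 0.05) and UTP6 (-0.18 ± 0.05) fell, with edgeR adjusted p from 0.00415 to 0.0161. The exosome helicase MTREX (-0.16 ± 0.05) and nuclease DIS3 (-0.17 ± 0.05) fell, as did the AAA+ ATPases RUVBL1 (-0.15 ± 0.05) and RUVBL2 (-0.16 ± 0.05) and the methyltransferase BUD23 (-0.17 ± 0.05). TSR3, which modifies small subunit rRNA, rose by 0.30 ± 0.08 and TAF1C, a subunit of the promoter factor SL1, by 0.22 ± 0.07. Only FTSJ3, RPF1, GTPBP4, WDR3 and POP1 of these 14 kept their call when any single library was left out. The other 9 lost it without at least 1 library: UTP6 and TAF1C without control replicate 1 or treated replicate 2, UTP11 and TSR3 without control replicate 1 or treated replicate 1, BUD23 without each of the 5 in turn, RUVBL1 and RUVBL2 without control replicate 1, control replicate 3 or treated replicate 2, MTREX without control replicate 1 or 2, and DIS3 without control replicate 1, control replicate 2 or treated replicate 1.

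**Figure D5:**
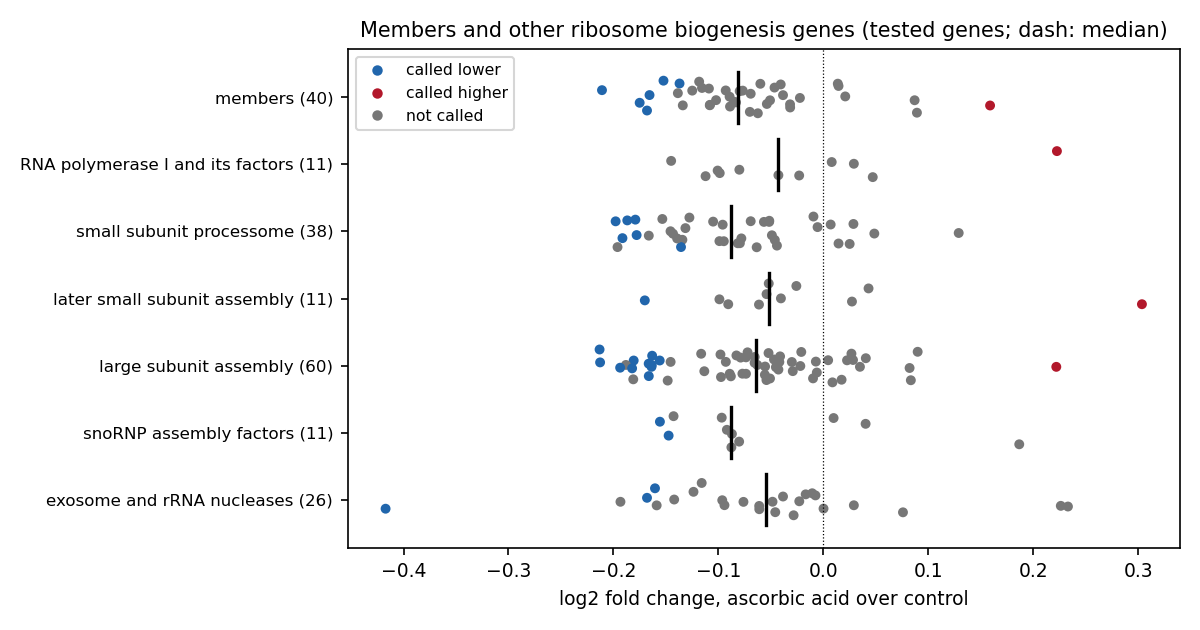
Log2 fold change (x axis) of the 40 genes and of the tested genes of 6 further ribosome biogenesis lists (rows, with the number of genes), 1 point for each gene coloured by its edgeR call, with the list median as a dash. All 7 medians lie below 0, and POP1 at -0.42 lies apart from the rest.

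None of 10 known regulators of ribosome production passed with edgeR or limma-voom, nor any of the 9 with an adjusted p in DESeq2 (MYCN had none), and 1 (EIF4EBP1) had an unadjusted p under 0.05 in edgeR. MYC, the transcription factor that drives many of these genes, measured 180.4, 175 and 183 CPM in controls and 184 and 188 CPM after treatment (0.05 ± 0.05, edgeR adjusted p = 0.460). Its treated libraries were both slightly higher than the controls. MAX, its dimer partner, was at -0.09 ± 0.05, MXI1, a MYC antagonist, at -0.12 ± 0.06, and MTOR, the growth kinase, at 0.02 ± 0.05. EIF4EBP1, a translation repressor that MTOR inactivates, was at 0.13 ± 0.05 (edgeR adjusted p = 0.108) and was called without control replicate 3 (0.17, adjusted p = 0.0439), with library totals (0.17, 0.0296) and with the replicate number as a block (0.17, 0.0393). RPTOR, RPS6KB1, MAF1 and RB1 ran from -0.09 to 0.08. MYCN was below 0.5 CPM in every library.

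Several of these genes also carry small nucleolar RNAs within their own transcripts. GENCODE places 22 small nucleolar RNA genes that are rows of the table inside 8 of the 40 genes (NOP56, NOP58, DKC1, WDR43, TSR1, NOP53, NCL and GNL3). Their counts ran from 0 to 104 in the libraries, and 3 rows were at 0 throughout. Mature small nucleolar RNAs lack a poly(A) tail, and the 6 tested ones that overlap an annotated exon of NOP56, NOP53 or GNL3 did not pass. SNORD110 within NOP56 had 96, 69 and 79 counts in controls and 104 and 93 after treatment, and SNORD19B within GNL3 had 89, 73 and 74 against 104 and 91, with no depth scaling.

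The 40 genes lie on 17 chromosomes. Their principal transcripts had a median GC content of 50% (39.0 to 65.2%) and a median length of 2444 bases, against 46.5% and 3636 bases for genes at 50 CPM or more. The 6 genes that fell had medians of 51.4% and 3037 bases, within the range of the rest.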

How the data were processed

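For 5 libraries the authors deposited 1 table of whole-number counts, 1 row a gene, made with Trimmomatic 0.39, STAR and featureCounts on hg38 (GRCh38), with DESeq2 also named, per the submitters' processing notes. Annotation, strand setting and the handling of reads with several alignments are details not given in the sources used here. Columns were assigned by name, reading "con" as control and "vc" as vitamin C, and 0 columns of other samples were present. Every row names a gene.

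Genes were filtered with filterByExpr, scaled with TMM factors and tested two-sided in R 4.3.3 by the quasi-likelihood functions of edgeR 4.0.16, with the robust option and group as the only term. The Benjamini-Hochberg adjustment ran over all 15271 tested genes, and 0.05 was the threshold. Standard errors and approximate 95% intervals were derived from the F statistic. CPM values use TMM-scaled totals. The fit was run on simulated counts with known folds of 1.2 or more. The called ribosome biogenesis genes of the chosen set had smaller fitted changes, so that run does not speak to changes of their size. Same-group libraries differed beyond sampling noise (chi-square per degree of freedom 3.96 to 7.27) and were kept separate. Positions, lengths and exon overlaps come from GENCODE release 29 and promoters from RefSeq (GRCh38.p14).

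The genes and lists were chosen with earlier results of these data known. Named genes are all 40 and up to 3 called genes of each further list by smallest p. Of 169 listed pathway and regulator genes 168 matched a row, 3 by an older symbol. ANKRA2, SRR, SGSM2, ARL10, HIGD2A and RMND5B were named for their exon overlap, and UTP18, SNORD110 and SNORD19B were singled out after their values were seen. Alternatives were DESeq2 1.42.0, limma-voom (limma 3.58.1), scaling by DESeq2 size factors, by upper quartiles or by library totals, filters of none or 5 CPM in 2 libraries, a prior that is not robust, testing against a fold of 1.2, the replicate number as a block, cyclic loess and each library left out. Halving the counts and removing trends with GC content and length (mgcv 1.9.3) were chosen after seeing the data. A further marker gene is not reported here.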

Additional observations from a re-analysis of the deposited data

How the results depend on the processing

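The median of the 40 genes stayed negative in all 18 alternatives, and so did the median of all tested genes at 50 CPM or more. For the 40 it was -0.0389 with library totals, -0.0564 with the filter of 5 CPM in 2 libraries and -0.0293 with cyclic loess. For genes at 50 CPM or more it was -0.0071, -0.0245 and -0.0061 in the same settings. Of the 40 genes, 6 fell in the reported fit, against 1 with library totals or cyclic loess, 3 with upper-quartile factors or the 5 CPM filter, 0 against a fold of 1.2 in edgeR (also 0 at an unadjusted p under 0.05), and 11 with GC and length trends removed. The count that rose was 1 (with GC and length trends removed UTP15 in place of MYBBP1A), and was 0 with DESeq2 and against a fold of 1.2. Over all genes, those lower numbered 390 with library totals, 542 with the 5 CPM filter, 522 with cyclic loess and 1474 with GC and length trends removed, and a fold of 1.2 left 275 higher and 11 lower. Of the 157 further pathway genes, 6 fell and 5 rose with library totals, 15 fell with upper-quartile factors, 11 with the 5 CPM filter and 5 with cyclic loess, 1 fell and 0 rose against a fold of 1.2, and 42 fell and 5 rose with GC and length trends removed. The cause was not tested.

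With each library left out in turn, 1 to 5 of the 40 genes fell and 0 to 2 rose, with a median of -0.0949 to -0.0723. Over all genes 790 to 1279 rose and 335 to 768 fell, and of the further pathway genes 1 to 3 rose and 6 to 20 fell. A lone treated library was taken to have the spread of the control group. With the replicate number as a block 4 of the 40 fell and 1 rose, without the POLR1A and UTP3 calls. The labels of control and treated samples share only a number. Same-numbered libraries had correlations of 0.025 and 0.011 in their deviations from the group means. With 2 treated libraries these deviations mirror each other, so the correlations cannot show whether libraries were paired. The number of libraries limits precision: the standard error of a gene of the 40 was 0.04 to 0.06 on the log2 scale.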
